A study of Mus musculus with 6 samples.

Results

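Early thymus cells of mice labelled as lacking RBPJ were examined by comparing the 2 libraries labelled RBPJ uninduced with the 2 labelled Control, which are 4 of the 6 libraries of the series. RNA came from DN1a/b cells sorted by FACS from the thymus of C57BL/6 mice. The labels describe Control mice as having kept RBPJ throughout, and RBPJ uninduced mice as lacking its expression and not having had it switched on. Reads of Rbpj were nevertheless present in both uninduced libraries, so groups are called here by their labels. The remaining 2 libraries came from mice that the labels describe as first lacking RBPJ, after 6 days of induction with doxycycline, and entered here only to help estimate the spread between replicates. The allele used, the cells in which it acts, the age of the mice and whether Control or uninduced mice were given doxycycline are not stated in the sources used here. The labels also do not say that the 2 libraries of a group came from different mice, so all p-values measure the spread between libraries, which may be technical.

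Notch receptors are cut when they bind a ligand on a neighbouring cell, and the released intracellular part enters the nucleus and joins RBPJ on DNA. There RBPJ, which otherwise holds target genes down with corepressors, recruits Mastermind coactivators and the targets are switched on. In the thymus this signal is what directs incoming progenitors to the T lineage. DN1a and DN1b are the Kit-high fractions of the first CD4- CD8- stage (CD44+, CD25-), which hold the early thymic progenitors and can still form myeloid, dendritic and other cells.

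Each library is a table of whole-number read counts per gene. The 2 Control libraries held 12932928 and 5311391 counts and the 2 uninduced libraries 5098927 and 10918205. Control replicate 2 stood apart in breadth: 30343 genes had at least 1 count there, against 18560 to 24025 in the other 5 libraries, and 3682 genes had counts in that library alone. Uninduced replicates differed most from each other, with a chi-square per degree of freedom of 54.1 against 20.6 in Control and 16.4 in the induced group. In uninduced replicate 2, 16.5% of counts fell on mitochondrial ribosomal RNA, against 9.26% to 12.4% elsewhere. Levels below are CPM, counts scaled to a common library total with TMM factors, and of each pair the first is replicate 1 (n = 2 a group). The markers of the sorted stage were present in all 4 libraries. Kit, the stem cell factor receptor, was at 515 and 372 CPM in Control and 630.4 and 398 CPM in uninduced cells (adjusted p = 0.742). Cd44 was at 390.2 and 342 CPM in Control and 198 and 196 CPM in uninduced cells. Il2ra, which encodes CD25 and should be low at this stage, was at 30.2 and 15.9 CPM in Control and 0.522 and 23.5 CPM in uninduced cells.

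Rbpj transcripts were reduced but not lost in the uninduced libraries. Rbpj (ENSMUSG00000039191, mm10 chromosome 5, 53466152 to 53657362, plus strand) was at 74.1 and 72.9 CPM in Control and 28.2 and 30.0 CPM in uninduced cells. The log2 fold change was -1.34 (SE 0.186, edgeR adjusted p = 0.00495). It passed without any 1 of the 6 libraries but not when only the 4 compared libraries were fitted (-1.36, adjusted p = 0.057). Whole-gene counts do not show which exons the remaining reads cover. A near-identical processed pseudogene, Rbpj-ps3, can share reads with it and held 31 and 21 counts in Control and 6 and 4 in uninduced libraries.

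Across the transcriptome, 452 genes were higher and 533 lower in uninduced than in Control libraries at an adjusted p below 0.05, out of 18174 tested. These are 2.49% and 2.93% of the genes tested, or 5.42% in either direction, and each list below is to be read against those shares. All of the called genes had groups that did not overlap, which was also true of 22.1% of all tested genes in the upward and 22.2% in the downward direction. Among called genes the median size of the log2 fold change was 1.48 for higher and 1.77 for lower genes. Of these, 105 higher and 120 lower genes changed by over 8-fold. The threshold itself selects large changes: the smallest called size was 0.67 for higher and 0.66 for lower genes. The median over all tested genes was -0.02. Libraries scaled by total counts alone gave -0.13 and upper quartile factors -0.12, so small fold changes depend on scaling by about that much.

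With 2 libraries a group, the calls differed in how firm they were. When the 4 compared libraries alone were fitted, 93 of the higher genes (0.512% of those tested) and 126 of the lower genes (0.693%) still passed, and no gene passed that had not passed before. Genes that passed both fits are said below to pass both. With each of the 6 libraries left out in turn, 106 higher and 193 lower genes passed every time. The counts were 185 higher and 260 lower without Control replicate 1, and 198 and 339 without Control replicate 2. They were 1007 and 993 without uninduced replicate 1, and 626 and 1165 without uninduced replicate 2. Without the induced libraries, in turn, they were 450 and 492, and 414 and 605. No called gene changed sign in any of these fits.

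**Figure D1:**
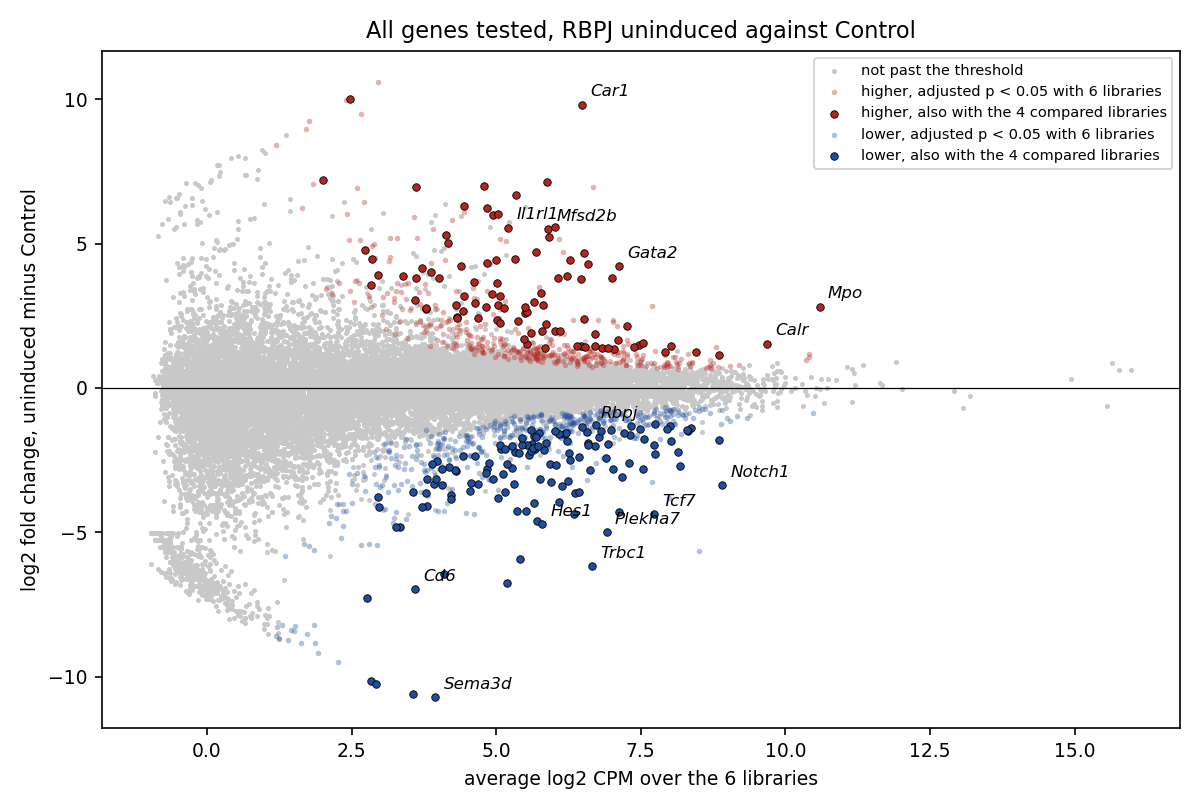
Log2 fold change of uninduced against Control (y axis) against average log2 CPM over the 6 libraries (x axis) for the 18174 genes tested. Red points are the 452 higher and blue points the 533 lower genes, outlined points (93 and 126) also passed with the 4 compared libraries alone, and grey points did not pass.

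Notch1, Notch3 and Hes1 were lower in uninduced than in Control libraries. Of 12 listed targets 11 could be tested, and 3 were lower and none higher, with a median log2 fold change of -1.37. Hes1, a repressor and the most widely used Notch target, was at 132 and 95.0 CPM in Control and 1.39 and 6.80 CPM in uninduced cells (-4.71, SE 0.528, adjusted p = 0.00196). Notch1, the receptor itself and its own target, was at 924 and 782 CPM in Control and 97.7 and 68.8 CPM in uninduced cells (-3.36, SE 0.219, adjusted p = 0.000186). Both genes passed both fits, and both uninduced libraries lay far below both Control libraries. Notch3, a receptor induced by Notch in T-cell precursors, was at 7.39 and 14.5 CPM in Control and 0.869 and 1.23 CPM in uninduced cells (-3.34, adjusted p = 0.0171). Its call was lost without Control replicate 2 (adjusted p = 0.0813) and with the 4 libraries (adjusted p = 0.101). Nrarp, the feedback inhibitor, was at 21.8 and 14.3 CPM in Control and 4.87 and 9.03 CPM in uninduced cells and missed the threshold (adjusted p = 0.091). Its uninduced libraries were both below Control, as for 22.2% of all tested genes. Dtx1, another target, was at 21.9 and 20.3 CPM in Control, at 0 CPM in uninduced replicate 1 and at 12.7 CPM in replicate 2. Dtx1 and Il2ra thus had one uninduced library at or near 0 and one near the Control level. Myc was at 247 and 146 CPM in Control and 309 and 243 CPM in uninduced cells. Hey1 was at 4.87 and 3.18 CPM in Control and 0 and 1.45 CPM in uninduced cells. Hes5, Hey2 and Heyl were at no more than 4.24 CPM in any of the 4 libraries, and their fold changes of 0.07, 0.33 and 0.83 changed sign with the processing. Without uninduced replicate 2 the list had 7 lower members and a median of -5.47, and without uninduced replicate 1 its median was -0.79.

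Of 27 other tested components of the Notch pathway 1 was higher and 2 were lower, with a median of 0.05 (-0.39 without uninduced replicate 2). Groups did not overlap, in either direction, for 14 of the 27. Over all tested genes this held for 22.1% upward and a further 22.2% downward, so the 14 are not a sign of change. Unadjusted edgeR p was below 0.05 for 10, and DESeq2 called 7. The number of lower members was 1 without Control replicate 2 and 4 without uninduced replicate 1. The coactivator Maml3 was at 249 and 207 CPM in Control and 90.8 and 56.7 CPM in uninduced cells (-1.63, adjusted p = 0.00617). The ligand Jag2 was at 24.1 and 36.8 CPM in Control and 7.30 and 5.02 CPM in uninduced cells (-2.31, adjusted p = 0.0126), a call lost without Control replicate 2 (adjusted p = 0.0688). Psen2, a catalytic subunit of the gamma-secretase that cuts Notch, was at 9.37 and 10.1 CPM in Control and 24.0 and 55.8 CPM in uninduced cells (2.04, adjusted p = 0.0263). The call of Psen2 was lost without either Control library (adjusted p = 0.113 each), and its fold change was 1.29 without uninduced replicate 2. None of these 3 passed both fits. Notch2, which also signals through RBPJ, was at 269.9 and 216 CPM in Control and 259 and 292 CPM in uninduced cells (adjusted p = 0.689). The Notch-cleaving protease Adam10 and the corepressor gene Spen also did not pass.

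To show what the promoters of changed genes look like, the 250 bases before the start of 2 lowered genes are given from RefSeq (GRCm38.p6, the mm10 build) on the gene's strand, 5′ to 3′. The core letters of the RBPJ site, TGGGAA, searched on both strands, are in capitals. Lck (chr4:129573642-129573891, minus strand, the upstream of its 2 windows) holds them once, beginning 207 bases before the start. The downstream window of Lck (chr4:129558373-129558622), not printed here, does not hold them. Notch1 (chr2:26503823-26504072, minus strand) does not hold them in the window shown.
Lck: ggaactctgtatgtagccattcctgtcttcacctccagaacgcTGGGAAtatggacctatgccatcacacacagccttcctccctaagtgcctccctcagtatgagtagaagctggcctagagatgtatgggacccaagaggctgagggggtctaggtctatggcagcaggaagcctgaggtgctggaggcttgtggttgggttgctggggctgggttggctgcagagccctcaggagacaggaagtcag
Notch1: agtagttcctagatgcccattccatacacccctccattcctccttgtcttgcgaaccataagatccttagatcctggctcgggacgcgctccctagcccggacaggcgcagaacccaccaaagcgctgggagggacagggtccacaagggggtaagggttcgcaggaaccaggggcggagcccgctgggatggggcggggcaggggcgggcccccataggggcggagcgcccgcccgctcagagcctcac
Short letters of this kind are common. They were found in 21.6% of all 32851 promoter windows, in 22.1% of the 544 windows of lower genes and in 20.9% of the 445 windows of higher genes. Windows were matched by symbol to 371 of the lower and 352 of the higher genes. A match describes the letters and is not evidence of binding.

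Of 19 tested T-lineage transcription factors 5 were lower and 1 higher, with 15 fold changes below 0 and a median of -0.61. Tcf7, which encodes TCF1, was at 361 and 479.6 CPM in Control and 13 and 27.4 CPM in uninduced cells (-4.36, SE 0.346, adjusted p = 0.000387). Tox, an HMG-box factor, was at 163 and 128 CPM in Control and 9.04 and 5.35 CPM in uninduced cells (-4.37, SE 0.303, adjusted p = 0.000273). Satb1, a genome organiser of thymocytes, was at 394 and 576 CPM in Control and 69.5 and 79.4 CPM in uninduced cells (-2.70, SE 0.221, adjusted p = 0.00044). The 3 genes passed both fits. Runx3 also passed both fits, with 224 and 216 CPM in Control and 94.1 and 82.1 CPM in uninduced cells (-1.32, SE 0.175, adjusted p = 0.00403). Gata3, the T-lineage GATA factor, was at 45.1 and 32.5 CPM in Control and 2.26 and 6.58 CPM in uninduced cells (-3.09, adjusted p = 0.00617, and 0.0571 with the 4 libraries). Zbtb16, which encodes PLZF, was the higher member, with 9.82 and 2.48 CPM in Control and 38.4 and 24.4 CPM in uninduced cells (2.29, adjusted p = 0.0424, and 0.124 without Control replicate 2). Myb, Runx1 and Ikzf1, which progenitors of many lineages use, did not pass (0.51, -0.59 and -0.22). With 1 compared library left out the median of the list ran from -0.44 without Control replicate 2 to -1.24 without uninduced replicate 2, and 9 members were lower without uninduced replicate 1. In bulk RNA of sorted cells, a fall in the number of cells of one type and a fall in RNA per cell cannot be told apart.

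Transcripts of the T-cell receptor beta locus were nearly absent in uninduced cells. Of 19 tested genes of the T-cell receptor loci 15 were lower and none higher, and the median was -5.91, or -4.79 with the 7 genes that had no counts in uninduced libraries set at their lower bounds. Their summed level was 546 and 415 CPM in Control and 7.13 and 14.6 CPM in uninduced cells. Trbc1 was at 258 and 184 CPM in Control and 4.17 and 2.23 CPM in uninduced cells (-6.16, SE 0.341, adjusted p = 6.33e-05). Trbc2, a near-identical copy that can exchange reads with Trbc1, was at 82.7 and 96.8 CPM in Control and 1.22 and 1.67 CPM in uninduced cells (-5.91, SE 0.319, adjusted p = 6.33e-05). Both passed both fits. The 9 genes from Trbd1 to Trbc1 that follow one another on chromosome 6 (41533201 to 41539881) were all lower, the longest such run of neighbouring tested genes. Whole-gene counts do not show whether such close neighbours were read in shared transcripts, so the 9 calls may not be separate. Trbd1, a diversity segment, had 20.3 and 9.91 CPM in Control and no counts in uninduced libraries. Against a floor of 3 counts per library it was at least 35.2-fold lower, or at least 23.1-fold without Control replicate 1. Trbj1-4, a joining segment, had 20.9 and 11.7 CPM in Control and no counts in uninduced libraries, at least 38.0-fold lower. The gamma and delta chains fell as well. Tcrg-C1 was at 17.7 and 13.4 CPM in Control and 1.22 and 3.23 CPM in uninduced cells (-2.76, adjusted p = 0.0141, and 0.0609 without Control replicate 1), and Trdc at 13.2 and 16.3 CPM and at 0 and 1.00 CPM (-4.67, adjusted p = 0.0148). Trac, the alpha constant gene, which is used later, was at 1.52 and 13.6 CPM in Control and 0 and 0.334 CPM in uninduced cells without passing. Of the 15 calls 6 passed both fits, and without Control replicate 1 the count was 7 of 18. The median was -8.87 without uninduced replicate 2.

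Signalling and surface genes of the T lineage fell in part. Of 19 tested genes of the receptor complex and its signalling, 5 were lower and none higher, with a median of -1.67. The kinase Lck was at 114 and 113 CPM in Control and 3.30 and 10.7 CPM in uninduced cells (-3.96, SE 0.430, adjusted p = 0.00173) and was the member that passed both fits. The adaptor Lcp2 (SLP-76) was at 181 and 174 CPM in Control and 86.6 and 48.1 CPM in uninduced cells (-1.40, adjusted p = 0.0189). The adaptor Grap2 (-2.31, adjusted p = 0.0230) and the GTPase Rhoh (-1.10, adjusted p = 0.0214) were also lower. Both of the latter lost their calls without Control replicate 1 (adjusted p = 0.0504 and 0.0712) and without Control replicate 2 (adjusted p = 0.0582 and 0.0536). The list had 9 lower members without Control replicate 1, 2 without Control replicate 2, 9 without uninduced replicate 1 and 12 without uninduced replicate 2. Its median was -0.97 without Control replicate 2 and -2.83 without uninduced replicate 2. Of 17 coreceptors and surface molecules 8 were lower, with a median of -2.34. Cd6, a costimulatory receptor, was at 19.7 and 34.8 CPM in Control and 0.174 and 0.223 CPM in uninduced cells (-6.97, SE 0.626, adjusted p = 0.000653). This rests on 3 counts in the uninduced libraries, and the ratio of summed counts was 119-fold lower with a 95% interval of 40.5 to 579.8 that covers counting error only. Cd96, an adhesion receptor, was at 24.2 and 31.0 CPM in Control and 3.48 and 4.12 CPM in uninduced cells (-2.84, adjusted p = 0.00298). These 2 passed both fits. Cd7 was at 37.3 and 19.8 CPM in Control and 1.39 and 4.12 CPM in uninduced cells (-3.32, adjusted p = 0.00753). Cd28 was at 14.3 and 43.9 CPM in Control and 2.96 and 3.23 CPM in uninduced cells (-3.21, adjusted p = 0.0169), a call lost without Control replicate 2 (adjusted p = 0.106). The surface list had 3 lower members and a median of -1.45 without that library, 12 lower members without uninduced replicate 1, and 13 with a median of -3.97 without uninduced replicate 2.

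Terminal transferase was the recombination gene that changed most. Dntt, which adds bases at receptor gene joints, was at 953 and 696 CPM in Control and 1.39 and 30.1 CPM in uninduced cells (-5.65, adjusted p = 0.00769, and 0.0697 with the 4 libraries). Both uninduced libraries were far below Control but also far apart from each other, and the fold change was -9.22 without uninduced replicate 2. Xrcc6 (Ku70), of the end-joining machinery, was at 202 and 175 CPM in Control and 68.3 and 109 CPM in uninduced cells (-1.09, adjusted p = 0.0333), a call lost without Control replicate 1 (adjusted p = 0.162). The other 8 of the 10 tested genes did not pass, among them Rag2 at 11.4 and 16.8 CPM in Control and 3.65 and 8.14 CPM in uninduced cells. Rag1 was high in 1 library of each group, with 15.7 and 256 CPM in Control and 10.8 and 126 CPM in uninduced cells.

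**Figure D2:**
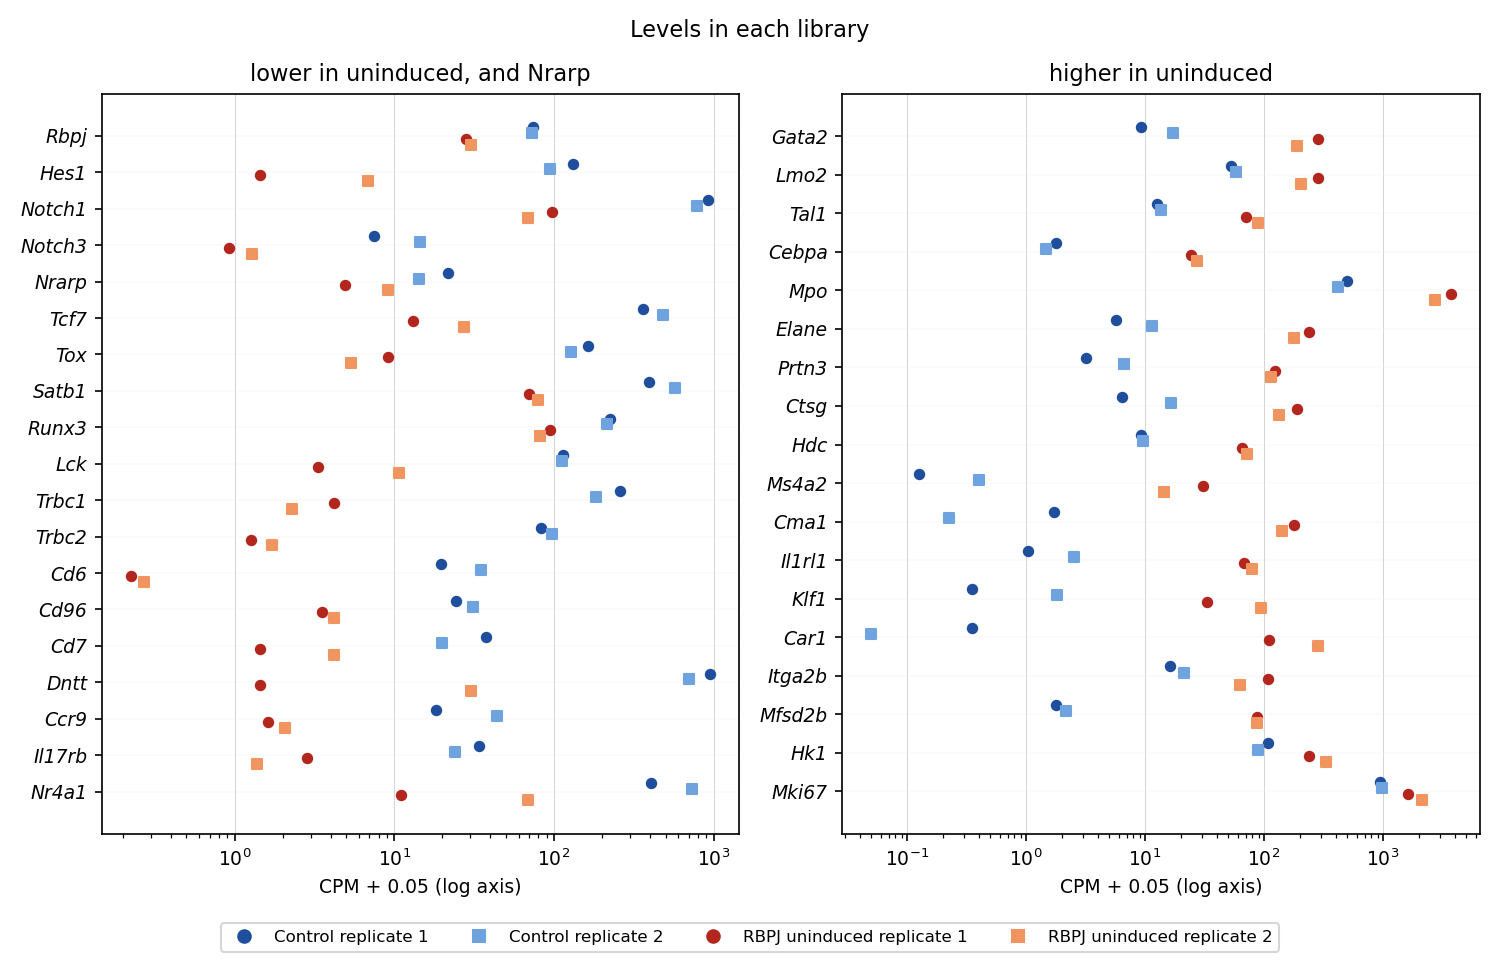
CPM plus 0.05 on a log axis for 19 genes lower in uninduced libraries (left; Nrarp did not pass the threshold) and 18 genes higher (right), 1 point per library. Blue points are Control and red or orange points uninduced libraries, and circles and squares are replicates 1 and 2. For each gene the blue and red points do not overlap, and Dntt, at 1.39 and 30.1 CPM, and Nr4a1 show wide gaps between the uninduced libraries.

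Among stem and progenitor factors, members of the GATA2, LMO2 and TAL1 complex rose while Mycn and Hoxa5 fell. Of 22 tested, 4 were higher and 2 lower, with a median of -0.23. Gata2, a factor of stem cells and of mast cells, was at 9.21 and 17.0 CPM in Control and 283 and 189.6 CPM in uninduced cells (4.21, SE 0.330, adjusted p = 0.000387). Lmo2, the bridging subunit of the complex, was at 52.5 and 58.6 CPM in Control and 285 and 203 CPM in uninduced cells (2.14, SE 0.219, adjusted p = 0.00133). Tal1, its basic helix-loop-helix subunit, was at 12.5 and 13.6 CPM in Control and 70.9 and 88.3 CPM in uninduced cells (2.61, SE 0.268, adjusted p = 0.00133). All 3 passed both fits, and Tal1 was the one of 8 tested E proteins, their partners and Id inhibitors to pass. Hlf was at 3.20 and 7.08 CPM in Control and 74.6 and 12.7 CPM in uninduced cells (3.13, adjusted p = 0.0477). It was highest in uninduced replicate 1 and lost its call without Control replicate 1 (adjusted p = 0.168) and Control replicate 2 (adjusted p = 0.105). Without uninduced replicate 1 its fold change was 1.32 (adjusted p = 0.0914). Mycn went the other way, with 107 and 52.2 CPM in Control and 14.8 and 10.5 CPM in uninduced cells (-2.67, SE 0.355, adjusted p = 0.00405), and passed both fits. Hoxa5 was at 9.21 and 8.49 CPM in Control and 1.22 and 1.00 CPM in uninduced cells (-2.99, adjusted p = 0.0321), a call lost without either Control library (adjusted p = 0.153 and 0.0869) and without either induced library (adjusted p = 0.0957 and 0.063). Factors of the early thymic progenitor that did not pass included Spi1 (PU.1) at 69.8 and 57.1 CPM in Control and 48.3 and 42.4 CPM in uninduced cells, Hhex at 95.7 and 68.1 CPM against 60.2 and 61.1 CPM, and Bcl11a at 441 and 317 CPM against 262 and 297 CPM. The list had 2 higher members and 1 lower member without Control replicate 1, 1 lower member without Control replicate 2, 7 lower members without uninduced replicate 1 and 6 higher members without uninduced replicate 2. Its median ran from -0.44 without uninduced replicate 1 to 0.08 without uninduced replicate 2.

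Of 15 tested surface molecules of progenitors 2 were lower, among them the hyaluronan receptor Cd44 (-0.89, adjusted p = 0.0188), and the median was -0.37. The call of Cd44 was lost without Control replicate 1 (adjusted p = 0.124) and induced replicate 1 (adjusted p = 0.0503). Flt3, the receptor of lymphoid-primed progenitors, was at 168 and 88.3 CPM in Control and 56.2 and 20.7 CPM in uninduced cells without passing (-1.75, adjusted p = 0.0525). The number of lower members ran from 0 without Control replicate 1 to 7 without uninduced replicate 1. The median ran from -0.09 without Control replicate 2 to -0.83 without uninduced replicate 1.

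Several primary granule genes of neutrophils were raised many-fold. Of 14 tested granule genes 5 were higher and none lower, all 14 fold changes were above 0, and the median was 3.73. The summed level of the list was 892 and 833 CPM in Control and 4938 and 3746 CPM in uninduced cells. Mpo, myeloperoxidase, was at 495 and 420.5 CPM in Control and 3712 and 2718 CPM in uninduced cells (2.81, SE 0.335, adjusted p = 0.00249). The proteases Elane and Prtn3 are neighbours on chromosome 10. Elane, neutrophil elastase, was at 5.71 and 11.3 CPM in Control and 238 and 179 CPM in uninduced cells (4.66, SE 0.684, adjusted p = 0.0061). Prtn3, proteinase 3, was at 3.12 and 6.55 CPM in Control and 124 and 115 CPM in uninduced cells (4.70, SE 0.624, adjusted p = 0.00403). Ctsg, cathepsin G, was at 6.4 and 16.5 CPM in Control and 188 and 134 CPM in uninduced cells (3.87, SE 0.512, adjusted p = 0.00398). These 4 passed both fits, with the uninduced libraries close to each other and far above Control. Granule proteins of later neutrophils did not pass and had counts in uninduced replicate 2 alone of the uninduced libraries: Ltf was at 0 and 31.8 CPM, Ngp at 0 and 22.1 CPM and Camp at 0 and 7.36 CPM in uninduced libraries, with at most 2.30 CPM in Control. Without uninduced replicate 2 the median of the list was 1.18 with 6 higher members, and without uninduced replicate 1 there were 9.

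Of these 4 genes, the promoters of Mpo, Elane and Prtn3 hold the letters GAGGAAGT of a PU.1-type ETS site, in capitals, once in the 250 bases before the start (RefSeq, GRCm38.p6, plus strand, both strands searched), and the window of Ctsg does not. They begin 224 bases before the start in Mpo (chr11:87793534-87793783), 85 in Elane (chr10:79886062-79886311) and 95 in Prtn3 (chr10:79879417-79879666).
Mpo: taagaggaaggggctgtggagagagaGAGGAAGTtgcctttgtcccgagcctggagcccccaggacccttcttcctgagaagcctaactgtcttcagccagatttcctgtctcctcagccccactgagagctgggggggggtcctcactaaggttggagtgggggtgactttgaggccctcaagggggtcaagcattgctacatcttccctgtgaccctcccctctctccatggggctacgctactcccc
Elane: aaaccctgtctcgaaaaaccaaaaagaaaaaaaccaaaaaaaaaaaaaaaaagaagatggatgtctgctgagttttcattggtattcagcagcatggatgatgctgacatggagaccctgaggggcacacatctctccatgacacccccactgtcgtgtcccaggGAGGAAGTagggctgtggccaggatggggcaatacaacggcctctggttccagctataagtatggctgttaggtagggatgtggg
Prtn3: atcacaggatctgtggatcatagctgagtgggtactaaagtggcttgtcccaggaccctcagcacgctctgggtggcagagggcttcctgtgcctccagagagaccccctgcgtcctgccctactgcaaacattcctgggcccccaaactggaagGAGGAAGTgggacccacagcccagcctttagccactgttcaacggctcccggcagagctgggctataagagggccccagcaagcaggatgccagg
The same 8 letters were in 2.44% of all promoter windows, in 2.02% of the windows of higher genes and in 4.78% of those of lower genes. The letters and the 3 genes were picked with their values known, so the match carries no test.

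Of 20 tested myeloid regulators and receptors 8 were higher and 1 lower, with a median of 1.91. Cebpa, the factor that opens the granulocyte programme, was at 1.75 and 1.42 CPM in Control and 24.5 and 27.5 CPM in uninduced cells (4.0, SE 0.519, adjusted p = 0.00365) and passed both fits. Irf8, a factor of monocytes and dendritic cells, was at 15.4 and 11.3 CPM in Control and 38.8 and 71.1 CPM in uninduced cells (2.03, adjusted p = 0.0106, and 0.0651 without Control replicate 2). Csf3r, the G-CSF receptor, was at 11.0 and 8.84 CPM in Control and 73.7 and 33.5 CPM in uninduced cells (2.42, adjusted p = 0.0114, and 0.0762 without Control replicate 2). Csf2rb2, the IL-3 receptor beta chain, was at 3.05 and 2.48 CPM in Control and 29.2 and 17.5 CPM in uninduced cells (3.06, adjusted p = 0.00744). Fcgr2b, an inhibitory Fc receptor, was at 8.53 and 5.48 CPM in Control and 42.6 and 36.2 CPM in uninduced cells (2.47, adjusted p = 0.00823). The last 2 passed both fits but lost their calls without Control replicate 2 (adjusted p = 0.052 and 0.0582), where 2 members of the list were higher. Ccr2, a chemokine receptor of monocytes, was at 6.4 and 7.96 CPM in Control and 27.8 and 33.3 CPM in uninduced cells (2.10, adjusted p = 0.0081, and 0.0588 without Control replicate 1). The signalling adaptor Tyrobp was the lower member, with 43.6 and 36.8 CPM in Control and 15.1 and 14 CPM in uninduced cells (-1.47, adjusted p = 0.0158, and 0.114 without Control replicate 1). Csf1r, the macrophage growth factor receptor, was at 35.2 and 27.8 CPM in Control and 23.1 and 29.1 CPM in uninduced cells, and Itgam (CD11b) at no more than 9.04 CPM in any of the 4.

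Most called mast cell genes were close to 0 in Control and clearly present in uninduced libraries. Of 14 tested mast cell and basophil genes 7 were higher and none lower, with a median of 2.98 (4.71 without Control replicate 2). Fold changes were above 0 for 13 of the 14. The remaining 1, at -6.49, was below both Control libraries in both uninduced libraries but did not pass. The summed level of the list was 89.4 and 101 CPM in Control and 912 and 579 CPM in uninduced cells. Cma1, mast cell chymase, was at 1.68 and 0.177 CPM in Control and 180.1 and 143 CPM in uninduced cells (7.14, SE 1.14, adjusted p = 0.00887). Ms4a2, the beta chain of the IgE receptor, was at 0.0761 and 0.354 CPM in Control and 30.8 and 14.4 CPM in uninduced cells (6.95, SE 0.777, adjusted p = 0.00193). Control held 3 counts of it, and the ratio of summed counts was 130.1-fold higher with a 95% interval of counting error of 44.1 to 635. Hdc, which makes histamine, was at 9.21 and 9.55 CPM in Control and 64.9 and 72.2 CPM in uninduced cells (2.87, SE 0.285, adjusted p = 0.0012). Mcpt4, another chymase, was at 1.68 and 0.354 CPM in Control and 94.8 and 61.1 CPM in uninduced cells (6.03, adjusted p = 0.0204). All 4 passed both fits, and Mcpt4 lost its call without Control replicate 2, where its fold change was 5.44. Cpa3, carboxypeptidase A3, was already at 62.6 and 41.0 CPM in Control and was at 315 and 148 CPM in uninduced cells (2.15, adjusted p = 0.00964, and 0.0677 without Control replicate 2). Mcpt8, a basophil protease, was at 0.457 and 1.06 CPM in Control and 8.0 and 3.90 CPM in uninduced cells without passing.

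The promoter of Ms4a2 (chr19:11623720-11623969, minus strand) is shown because it holds the letters AGATAA of a GATA site, in capitals on either strand, 3 times in the 250 bases before the start, beginning 224, 37 and 11 bases before it (RefSeq, GRCm38.p6).
Ms4a2: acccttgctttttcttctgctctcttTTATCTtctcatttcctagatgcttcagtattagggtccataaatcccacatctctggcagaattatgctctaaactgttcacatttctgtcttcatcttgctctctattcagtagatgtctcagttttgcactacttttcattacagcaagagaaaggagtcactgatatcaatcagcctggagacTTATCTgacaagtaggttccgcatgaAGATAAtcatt
The 6 letters were in 9.99% of all windows, 6.59% of the windows of tested genes, 8.76% of those of higher genes and 7.35% of those of lower genes.

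Of 20 tested erythroid genes 10 were higher and none lower, with a median of 4.51. Their summed level was 76.4 and 119 CPM in Control and 709.7 and 2392 CPM in uninduced cells. Car1, an early erythroid carbonic anhydrase, was at 0.305 and 0 CPM in Control and 110.1 and 287 CPM in uninduced cells (9.81, SE 0.779, adjusted p = 0.000387). Klf1, the central erythroid factor, was at 0.305 and 1.77 CPM in Control and 33.4 and 95.0 CPM in uninduced cells (6.23, SE 0.839, adjusted p = 0.00424). Aqp1, a water channel of red cells, was at 1.29 and 5.66 CPM in Control and 92.3 and 199 CPM in uninduced cells (5.57, adjusted p = 0.00193). These 3 passed both fits. Rhd, a Rhesus antigen gene, was at 4.35 and 37.7 CPM in uninduced libraries with no counts in Control, at least 55.3-fold higher. That bound was 11.5-fold without uninduced replicate 2, 99.2-fold without replicate 1 and 92.0-fold without Control replicate 2. Globin genes did not pass: Hbb-bs was at 0 and 6.37 CPM in Control and 0 and 33.8 CPM in uninduced cells, and Slc4a1 (band 3) at no more than 2.83 CPM in any of the 4. Gata1 was at 0.152 and 6.37 CPM in Control and 26.1 and 80.1 CPM in uninduced cells (4.23, adjusted p = 0.0539). The list had 16 higher members without uninduced replicate 1. Its median was 7.97 without Control replicate 2, 3.41 without Control replicate 1 and 3.37 without uninduced replicate 2.

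Of 12 tested genes of heme synthesis and iron uptake 4 were higher and none lower, with a median of 1.32 (0.68 without uninduced replicate 2). Alas1, a rate-limiting synthase of the pathway, was at 31.4 and 30.4 CPM in Control and 148 and 93.1 CPM in uninduced cells (1.96, adjusted p = 0.00783). It passed both fits, but its call was lost without Control replicate 2 (adjusted p = 0.0522). Cpox was at 9.75 and 9.38 CPM in Control and 36.0 and 117 CPM in uninduced cells (3.0, adjusted p = 0.0098), with a fold change of 1.89 without uninduced replicate 2. Its call and that of the transferrin receptor Tfrc (1.01, adjusted p = 0.0365) were lost without Control replicate 2 (adjusted p = 0.0518 and 0.233), where 1 member was higher, while 7 were without uninduced replicate 1. The call of Tfrc was also lost without uninduced replicate 2 (adjusted p = 0.0599).

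Of 13 tested megakaryocyte and platelet genes 5 were higher and none lower, with a median of 2.21. Itga2b (CD41), the platelet integrin, was at 16.1 and 21.1 CPM in Control and 108 and 63.3 CPM in uninduced cells (2.21, SE 0.313, adjusted p = 0.00547) and passed both fits. Zfpm1 (FOG1), a GATA cofactor, was at 35.7 and 44.4 CPM in Control and 118 and 294 CPM in uninduced cells (2.37, adjusted p = 0.00856), with 1.56 without uninduced replicate 2. Pf4, platelet factor 4, was at 0.457 and 0.708 CPM in Control and 5.39 and 5.68 CPM in uninduced cells (3.27, adjusted p = 0.0423), and Rab27b, of granule transport, at 0.457 and 2.30 CPM and at 8.87 and 16.6 CPM (3.35, adjusted p = 0.0317). Both lost their calls without Control replicate 1 (adjusted p = 0.218 and 0.119), and Pf4 also without Control replicate 2 (adjusted p = 0.12) and without either induced library (adjusted p = 0.172 and 0.146). The list had 3 higher members without either Control library.

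**Figure D3:**
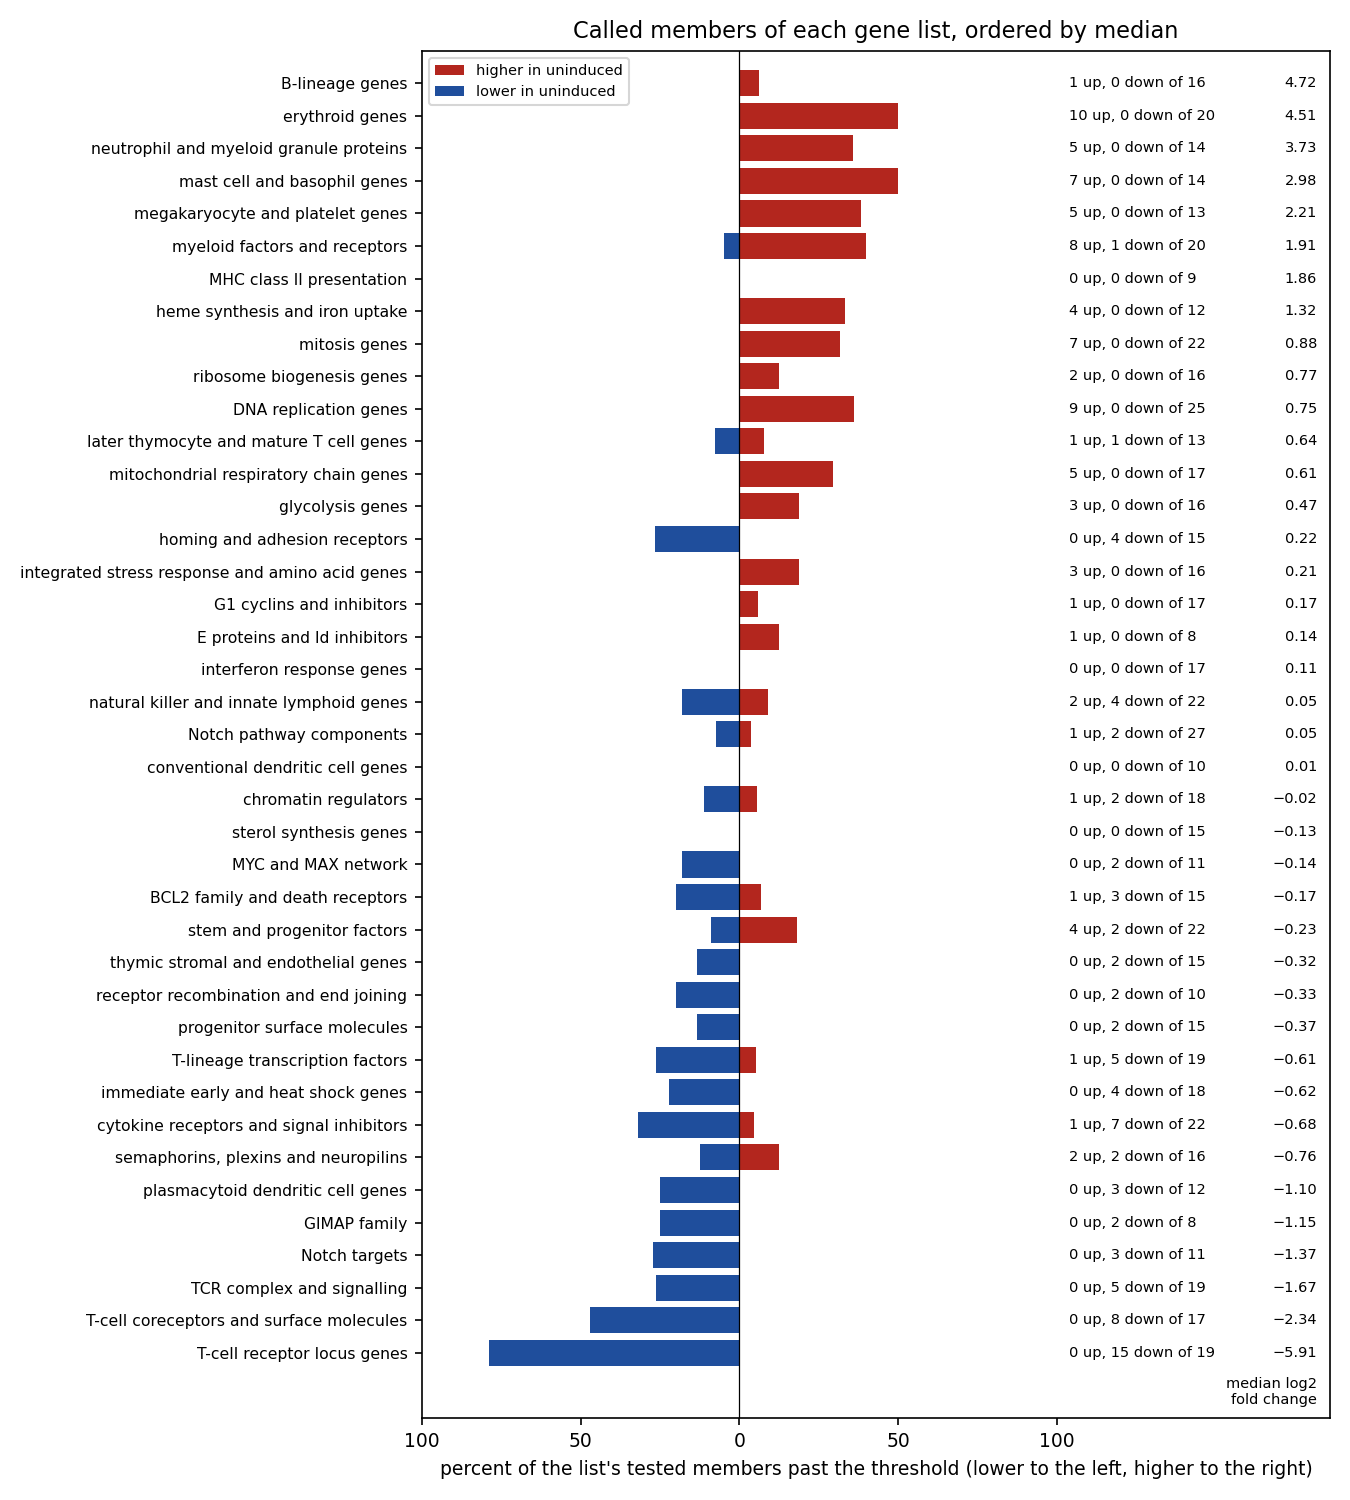
Share of each list's tested members that were higher (red, to the right) or lower (blue, to the left) in uninduced libraries, in percent, with the counts and the median log2 fold change printed at the right. Lists are ordered by median, from 4.72 in B-lineage genes, where 1 of 16 passed, to -5.91 in T-cell receptor locus genes, where 15 of 19 did.

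B-lineage and MHC class II genes were high in 1 uninduced library and low in the other. B-lineage genes summed to 322 and 253 CPM in Control and to 83.1 and 1856 CPM in uninduced libraries. Pax5, the B-lineage commitment factor, was at 0.228 and 3.89 CPM in Control and 5.39 and 249 CPM in uninduced cells, and Spib at 0.914 and 0.531 CPM and at 0 and 82.1 CPM. Cd79a alone of 16 tested passed (5.49, adjusted p = 0.0435), at 0.228 and 1.95 CPM in Control and 6.09 and 75.3 CPM in uninduced cells, and its fold change was 2.57 (adjusted p = 0.276) without uninduced replicate 2. Its call was also lost without Control replicate 1 (adjusted p = 0.143) and Control replicate 2 (adjusted p = 0.0698). The median of the B-lineage list was 4.72 with all libraries, 0.65 with 3 lower members without uninduced replicate 2, 5.73 with 14 higher members without uninduced replicate 1, and 7.21 without Control replicate 2. MHC class II genes summed to 128 and 142 CPM in Control and to 66.8 and 491 CPM in uninduced libraries. None of 9 passed in edgeR, 1 had an unadjusted p below 0.05 and DESeq2 called 1, and in uninduced replicate 1 H2-DMa alone was above both Control libraries. Their median was 1.86 with all libraries, -1.43 with 4 lower members without uninduced replicate 2, and 2.74 with 5 higher members without uninduced replicate 1. The part of B-lineage transcripts of uninduced replicate 2 in other differences was not tested. Of the 173 genes whose uninduced libraries differed by at least 8-fold with the higher at 10 CPM or more, 148 were higher in replicate 2, and 6 were called.

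Genes whose Control libraries differed widely were mostly higher in Control replicate 2. In Control 99 genes differed by at least 8-fold, 98 of them higher in replicate 2 and 1 of them called, while 5 did in the induced group. Bcl11b, the T-lineage commitment factor, was at 5.10 and 131 CPM in Control and 5.74 and 5.68 CPM in uninduced cells. Themis was at 3.50 and 88.6 CPM in Control and 4.0 and 3.90 CPM in uninduced cells. Cd4 was at 5.41 and 61.6 CPM in Control and 1.22 and 3.57 CPM in uninduced cells. For Bcl11b and Themis the first Control library was thus at the uninduced level, and neither passed. These genes were picked for their difference between replicates. Dntt and the summed T-cell receptor locus genes were higher in Control replicate 1. Other T-lineage sums were higher in Control replicate 2. In Control they were 3200.1 and 3542 CPM for transcription factors and 776 and 1131 CPM for the receptor complex and its signalling. For coreceptors and surface molecules they were 665 and 963 CPM. Of 13 tested later thymocyte and mature T cell genes 1 was higher, Ifngr1, and 1 lower, Cd53, and their summed levels were 290.0 and 326 CPM in Control and 329 and 382 CPM in uninduced cells. Ifngr1, the interferon gamma receptor, was at 46.1 and 53.8 CPM in Control and 140.3 and 128 CPM in uninduced cells (1.43, SE 0.203, adjusted p = 0.0055, both fits). Of the T-lineage factors named above, Tcf7, Tox, Satb1, Runx3 and Gata3 kept their calls without Control replicate 2, where the list had a median of -0.44.

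**Figure D4:**
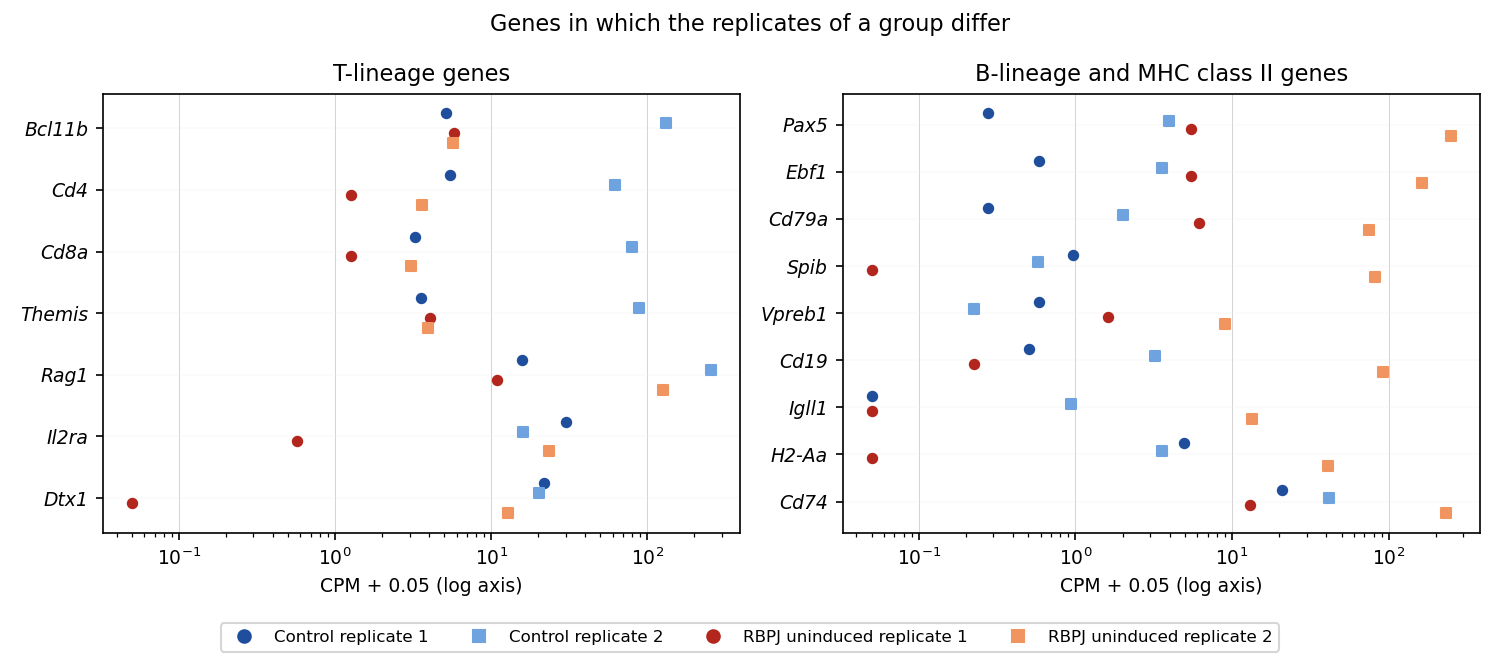
CPM plus 0.05 on a log axis, 1 point per library, for T-lineage genes (left) and B-lineage and MHC class II genes (right) in which the replicates of a group differ. Control replicate 2 (light blue squares) is highest for Bcl11b, Cd4, Cd8a, Themis and Rag1, and uninduced replicate 2 (orange squares) for the 9 genes on the right, among them Pax5 at 249 CPM.

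Of 22 tested genes of innate lymphoid and natural killer cells 2 were higher and 4 lower, with a median of 0.05. The median rested on uninduced replicate 2, without which it was -2.25 with 3 of the 22 above 0. There were 5 higher members without uninduced replicate 1, and 2 lower members without Control replicate 1. Il1rl1, the IL-33 receptor, was at 0.990 and 2.48 CPM in Control and 68.5 and 79.0 CPM in uninduced cells (5.55, SE 0.482, adjusted p = 0.000568). Il17rb, the IL-25 receptor, was at 34.0 and 24.1 CPM in Control and 2.78 and 1.34 CPM in uninduced cells (-3.86, SE 0.456, adjusted p = 0.00237). Il18rap, an IL-18 receptor chain, was at 110.1 and 117 CPM in Control and 25.6 and 22.6 CPM in uninduced cells (-2.24, SE 0.205, adjusted p = 0.000715). These 3 passed both fits. Il12rb2 was at 52.2 and 42.5 CPM in Control and 19.5 and 9.92 CPM in uninduced cells (-1.70, adjusted p = 0.0245, and 0.0989 without Control replicate 1). Of 10 conventional dendritic cell genes edgeR called none and DESeq2 2, and 4 were at an unadjusted p below 0.05 in edgeR. Of 12 plasmacytoid dendritic cell genes 3 were lower: Ccr9, Tlr7 (-3.02, adjusted p = 0.0147) and Lair1 (-1.32, adjusted p = 0.0432). The calls of the last 2 were lost without Control replicate 1 (adjusted p = 0.0761 and 0.309), and that of Lair1 also without induced replicate 1 (adjusted p = 0.0605), while 5 members were lower without uninduced replicate 2. Among 15 thymic stromal and endothelial genes the keratins, Foxn1, Psmb11, Aire, the collagens and Pdgfra were at no more than 6.90 CPM in any of the 4 libraries, and the 2 lower members were Pdgfrb and Pecam1. Pdgfrb was at 246 and 188 CPM in Control and 44.2 and 28.3 CPM in uninduced cells (-2.59, SE 0.255, adjusted p = 0.0012, both fits), and Pecam1 changed by -0.80 (adjusted p = 0.0348, 0.221 without Control replicate 1, 0.0534 without Control replicate 2 and 0.115 without induced replicate 1).

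Of 22 tested cytokine receptors and signal inhibitors 7 were lower and 1 higher, with a median of -0.68, and 11 were lower without uninduced replicate 2. Il2rg, the common gamma chain used by IL-2, IL-7 and IL-15 receptors, was at 52.5 and 49.7 CPM in Control and 11.6 and 14.5 CPM in uninduced cells (-1.96, SE 0.268, adjusted p = 0.00459) and was the member that passed both fits. Il6st, the shared chain of the IL-6 family, was at 122 and 96.6 CPM in Control and 42.4 and 23.7 CPM in uninduced cells (-1.73, adjusted p = 0.0109). Il4ra was at 98.8 and 134 CPM in Control and 48.2 and 35.3 CPM in uninduced cells (-1.48, adjusted p = 0.0124, and 0.0541 without Control replicate 2). Stat5a, which carries signals of many of these receptors, was the higher member, at 65.0 and 55.7 CPM in Control and 115 and 128 CPM in uninduced cells (1.01, adjusted p = 0.0198). It lost its call without Control replicate 1 (adjusted p = 0.0635) and Control replicate 2 (adjusted p = 0.153), and without the latter 2 members of the list were lower and none higher. Il7r was at 17.1 and 16.8 CPM in Control and 2.96 and 24.3 CPM in uninduced cells.

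Of 15 tested receptors for thymus homing and adhesion 4 were lower and none higher, although the median was 0.22 (-0.17 without uninduced replicate 2). There were 3 higher members without uninduced replicate 1, and 1 lower member without Control replicate 1. Ccr9, the receptor for the thymic chemokine CCL25, was at 18.2 and 44.2 CPM in Control and 1.56 and 2.01 CPM in uninduced cells (-4.09, SE 0.549, adjusted p = 0.00422, both fits). The integrin chain Itgb7 was at 47.4 and 32.0 CPM in Control and 9.56 and 14.7 CPM in uninduced cells (-1.70, adjusted p = 0.0196). Itgal (LFA-1) was at 251 and 234 CPM in Control and 104 and 126 CPM in uninduced cells (-1.08, adjusted p = 0.00996). Calls of both integrins and of Cd44 were lost without Control replicate 1 (adjusted p = 0.129, 0.0635 and 0.124). Semaphorin genes included one of the sharpest losses. Sema3d, a secreted guidance protein, was at 20.6 and 24.4 CPM in Control with no counts in uninduced libraries, at least 52.5-fold lower. Plxnc1, a semaphorin receptor, was at 38.7 and 42.6 CPM in Control and 169 and 127 CPM in uninduced cells (1.87, SE 0.221, adjusted p = 0.00237). These 2 passed both fits, and of 16 tested members of the family 2 were higher and 2 lower, or 5 lower without uninduced replicate 2. The others were Plxna1 (2.17, adjusted p = 0.0301) and Plxnb2 (-1.36, adjusted p = 0.0187), which lost their calls without Control replicate 1 (adjusted p = 0.163 and 0.143). Plxna1 also lost its call without Control replicate 2 (adjusted p = 0.102) and uninduced replicate 2 (adjusted p = 0.0648).

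Fasl, the ligand of the death receptor Fas, was at 27.0 and 14.9 CPM in Control with no counts in uninduced libraries, at least 48.9-fold lower. Every bound with 1 library left out was 34.7-fold or more. Bcl2l11, which encodes the death-promoting protein BIM, was at 131 and 246 CPM in Control and 13.9 and 47.4 CPM in uninduced cells (-2.60, adjusted p = 0.0193, and 0.0542 without Control replicate 2). Mcl1, a survival gene, was at 328 and 396 CPM in Control and 169 and 214 CPM in uninduced cells (-0.92, adjusted p = 0.025). Of these 3 genes Fasl passed both fits. The call of Mcl1 was lost without Control replicate 1 or 2 (adjusted p = 0.0535 and 0.0652), and 3 of the 15 tested were lower, 1 without Control replicate 2. Of 8 GIMAP genes, GTPases of lymphocytes, 2 were lower, or 5 without uninduced replicate 2. Gimap6 was at 162 and 190.2 CPM in Control and 41.2 and 51.0 CPM in uninduced cells (-1.93, SE 0.202, adjusted p = 0.00147, both fits), and Gimap5 at 14.9 and 17.0 CPM and at 2.09 and 3.12 CPM (-2.59, adjusted p = 0.0128).

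All 25 tested DNA replication genes had a fold change above 0, with a median of 0.75, and 9 were called higher. All 22 mitosis genes did so too, with a median of 0.88, and 7 were called. Both uninduced libraries were above both Control libraries for 23 of the 25 and 21 of the 22, against 22.1% of all tested genes. Of all 18174 tested genes, 8901 had a fold change above 0. Members of a list were not shown to vary independently, so these counts carry no test. The upward direction of every member held with TMM, RLE, upper quartile and total-count scaling. Total-count scaling left 4 replication and 2 mitosis genes called. Mcm10, a replication initiation factor, was at 54.1 and 48.5 CPM in Control and 140.1 and 140.4 CPM in uninduced cells (1.45, SE 0.227, adjusted p = 0.00803) and was the one that passed both fits, though not without Control replicate 2 (adjusted p = 0.0628). Cdt1, which loads the replicative helicase, was at 46.1 and 41.6 CPM in Control and 82.9 and 112 CPM in uninduced cells (1.15, adjusted p = 0.0225). Mki67 was at 951 and 977 CPM in Control and 1619.5 and 2123 CPM in uninduced cells (0.96, adjusted p = 0.0196). Calls in both lists were fragile: without Control replicate 1 there were 2 and 0, without Control replicate 2 there were 0 and 0, and 2 mitosis genes were called without uninduced replicate 2. Among the G1 regulators 1 of 17 passed, the cyclin Ccne1, at 3.88 and 7.96 CPM in Control and 17.2 and 54.1 CPM in uninduced cells (2.63, adjusted p = 0.0348). Its fold change was 1.57 without uninduced replicate 2 (adjusted p = 0.0723), and its call was also lost without Control replicate 1 (adjusted p = 0.154) and Control replicate 2 (adjusted p = 0.0641). In the MYC and MAX network Mycn and Mxd4 (-1.28, adjusted p = 0.0392, 0.136 without Control replicate 1 and 0.0702 without Control replicate 2) were lower and 9 others did not pass.

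Metabolic and biosynthetic lists differed in their medians. All 16 ribosome biogenesis genes lay above 0 (median 0.77, 2 called), as did 14 of 17 respiratory chain genes (median 0.61, 5 called) and 13 of 16 glycolysis genes (median 0.47, 3 called). Hk1, hexokinase, was at 107 and 89.0 CPM in Control and 239 and 335 CPM in uninduced cells (1.55, SE 0.213, adjusted p = 0.00472). Eno1, enolase, was at 86.2 and 65.6 CPM in Control and 208 and 189 CPM in uninduced cells (1.38, SE 0.201, adjusted p = 0.00589). Both passed both fits and kept their calls with each library left out. Ndufs1 of complex I was at 43.8 and 31.8 CPM in Control and 99.3 and 80.4 CPM in uninduced cells (1.24, adjusted p = 0.0214), and Nolc1, a nucleolar protein, at 201 and 215 CPM and at 365 and 521 CPM (1.09, adjusted p = 0.0169). Without Control replicate 2 no respiratory chain or ribosome biogenesis gene passed in edgeR, and without Control replicate 1 the counts were 1 and 0, while DESeq2 with all libraries called 7 in each list. Without uninduced replicate 1 there were 10 called ribosome biogenesis genes. Without Control replicate 2 the medians were 0.38 for the respiratory chain and 0.29 for glycolysis. With total-count scaling no respiratory chain gene passed. Of 16 stress response and amino acid genes 3 were higher, with a median of 0.21 and 10 above 0. Slc7a5, an amino acid transporter, was at 40.7 and 50.4 CPM in Control and 93.9 and 107 CPM in uninduced cells (1.15, adjusted p = 0.0189), a call lost without Control replicate 1 (adjusted p = 0.137) and Control replicate 2 (adjusted p = 0.0595). Asns, asparagine synthetase, was at 1.45 and 3.18 CPM in Control and 10.4 and 43.0 CPM in uninduced cells (3.59, adjusted p = 0.0263), with 2.19 without uninduced replicate 2 (adjusted p = 0.137). Its call was also lost without Control replicate 1 (adjusted p = 0.122) and Control replicate 2 (adjusted p = 0.0626). Neither edgeR nor DESeq2 called any of 15 sterol synthesis genes or 17 interferon response genes, with 2 and 1 at an unadjusted p below 0.05 and medians of -0.13 and 0.11.

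Of 18 tested immediate early and heat shock genes 4 were lower and none higher, with a median of -0.62. The 4 were Nr4a1, Egr3, Egr1 and Zfp36, which are immediate early genes, induced quickly by receptor signals. Nr4a1, which marks antigen receptor signalling, was at 404 and 732 CPM in Control and 11.0 and 68.3 CPM in uninduced cells (-3.82, adjusted p = 0.0129). Egr3 was at 46.8 and 71.8 CPM in Control and 7.65 and 14.7 CPM in uninduced cells (-2.39, adjusted p = 0.00956). Neither passed with the 4 libraries alone (adjusted p = 0.0852 and 0.0572), and both kept their calls with each library left out. The list had 2 lower members without either Control library. The median was -0.05 without uninduced replicate 1, -0.23 without Control replicate 2 and -1.17 with 11 lower members without uninduced replicate 2. Among 18 chromatin regulators the maintenance methyltransferase and the de novo enzymes went in opposite directions. Dnmt1 was at 458 and 382 CPM in Control and 681 and 749 CPM in uninduced cells (0.77, adjusted p = 0.0319). Dnmt3a was at 228 and 225 CPM in Control and 136 and 104 CPM in uninduced cells (-0.92, adjusted p = 0.0248), and Dnmt3b at 139 and 80.1 CPM and at 47.6 and 30.8 CPM (-1.49, adjusted p = 0.0279). All 3 calls were lost without Control replicate 1 (adjusted p = 0.0635, 0.103 and 0.163), and those of Dnmt1 and Dnmt3a without Control replicate 2 (adjusted p = 0.217 and 0.0634). The call of Dnmt1 was also lost without uninduced replicate 2 (adjusted p = 0.065) and without either induced library (adjusted p = 0.116 and 0.144).

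**Figure D5:**
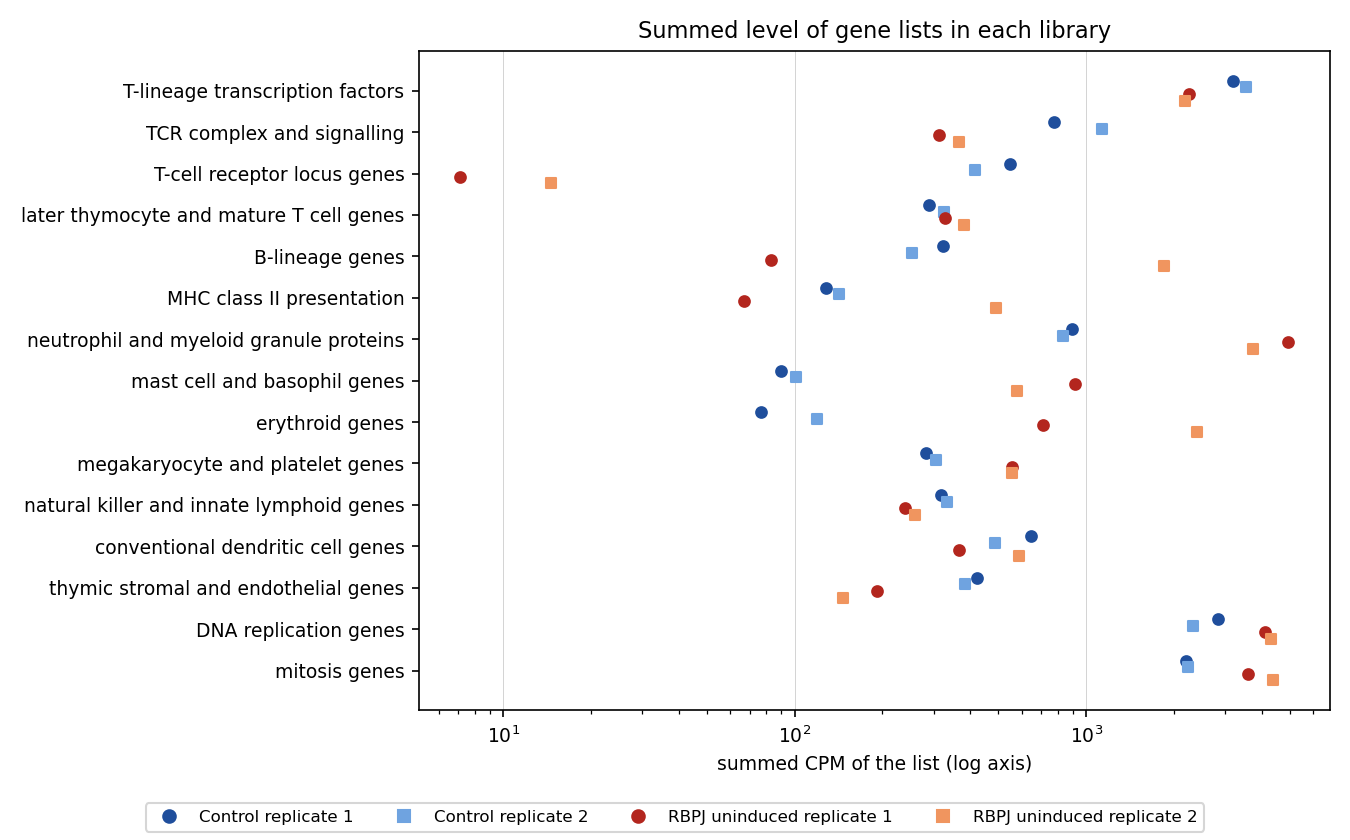
Summed CPM of 15 gene lists on a log axis, 1 point per library; blue points are Control and red or orange points uninduced libraries. The T-cell receptor locus genes fall from 546 and 415 CPM to 7.13 and 14.6 CPM, granule, mast cell and erythroid genes rise, and B-lineage genes separate uninduced replicate 2, at 1856 CPM, from replicate 1, at 83.1 CPM.

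Several genes with very small p-values were in none of the lists. Plekha7, an adherens junction protein, was at 265 and 223 CPM in Control and 8.17 and 7.24 CPM in uninduced cells (-4.99, SE 0.244, adjusted p = 4.17e-05). Mfsd2b, which exports sphingosine-1-phosphate from red cells and platelets, was at 1.75 and 2.12 CPM in Control and 87.5 and 86.8 CPM in uninduced cells (5.51, SE 0.271, adjusted p = 4.17e-05). In both genes the replicates of a group were close to each other. Arpp21, an RNA-binding protein, was at 297 and 256 CPM in Control and 10.6 and 17.3 CPM in uninduced cells (-4.29, SE 0.268, adjusted p = 0.000148). Cd33, a sialic acid receptor, was at 131 and 109 CPM in Control and 9.74 and 12.9 CPM in uninduced cells (-3.40, SE 0.245, adjusted p = 0.000344). Rab44, a large Rab GTPase, was at 7.23 and 9.55 CPM in Control and 179.8 and 141 CPM in uninduced cells (4.28, SE 0.334, adjusted p = 0.000387). Tnfaip2 was at 3.58 and 3.18 CPM in Control and 82.8 and 175 CPM in uninduced cells (5.24, SE 0.402, adjusted p = 0.000387). All 6 passed both fits and kept their calls with each library left out. Genes that fell to near 0 included St8sia1, the GD3 ganglioside synthase, at 95.3 and 76.4 CPM in Control and 0.174 and 1.23 CPM in uninduced cells (-6.75, adjusted p = 0.000461), and Tnfsf11 (RANKL), at 28.5 and 53.6 CPM and at 0 and 0.780 CPM (-6.45, adjusted p = 0.00308, and -11.56 without uninduced replicate 2). Aldh1a1, a retinaldehyde dehydrogenase, and Zg16 rose from no counts in Control. Aldh1a1 was at 5.56 and 21.2 CPM in uninduced libraries, at least 35.2-fold higher, with a bound of 14.7-fold without uninduced replicate 2, 55.8-fold without uninduced replicate 1 and 58.5-fold without Control replicate 2. Zg16 was at 12.3 and 6.80 CPM, at least 25.2-fold higher, with bounds from 17.9-fold without uninduced replicate 1 to 41.9-fold without Control replicate 2. Ces2g, a carboxylesterase, was at 0.228 and 2.12 CPM in Control and 41.2 and 149 CPM in uninduced cells (6.69, adjusted p = 0.00395).

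Called genes were mostly protein-coding. Of 14143 protein-coding genes tested 443 were higher and 479 lower (6.52%), whereas among 521 lincRNA genes 2 were higher and 6 lower and among 879 processed pseudogenes 1 was lower. The lincRNA median of -0.38 rested on Control replicate 2, without which it was 0.21. Outside the beta locus, the longest run of neighbouring tested genes called in 1 direction was at Satb1 on chromosome 17 (51736187 to 51834723), where Satb1 and 6 genes that overlap it were lower. Of these, 5 are on its strand, such as C230085N15Rik, at 42.8 and 61.0 CPM in Control and 5.74 and 5.91 CPM in uninduced cells. Since the strand setting of the counting is not given, their reads and those of Satb1 cannot be cleanly divided. A run of 3 higher genes on chromosome 10 held Plppr3, Prtn3 and Elane. Another on chromosome 13 (100144063 to 100317674) held Naip2, Naip5 and Naip6, closely related sensors of bacterial flagellin or secretion system proteins. Naip5 was at 1.52 and 3.18 CPM in Control and 32.9 and 13.2 CPM in uninduced cells.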

How the data were processed

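RNA-seq was done on FACS-sorted thymus DN1a/b cells in 6 libraries of 3 groups with 2 libraries each. The authors deposited 1 table of whole-number read counts per gene for each library (47729 genes, of which 47310 matched GENCODE M21 on GRCm38). The reads were handled with HISAT2, StringTie and HTSeq on mm10, per the submitters' processing notes. Versions, strand setting and read filters are not given there.

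Counts were tested as deposited with edgeR 4.0.16 (R 4.3.3), using its quasi-likelihood test, TMM factors and filterByExpr (minimum count 10, minimum total 15), which left 18174 genes. The fit held all 6 libraries (3 residual degrees of freedom), so the induced group helped to set the spread, and Benjamini-Hochberg adjustment ran over all tested genes with a threshold of 0.05. The alternatives were a fit of the 4 compared libraries (2 residual degrees of freedom), DESeq2 1.42.0, other scaling factors, other filters, a replicate block and leaving out each library. The standard error was derived from the F statistic. Total counts ran from 5098927 to 12932928 per library, and the spread between 2 libraries, not counting error, limits most comparisons. The fitting steps were tested on simulated data.

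Genes were named by rule: Rbpj, all tested Notch targets, up to 4 called members of each other list (those passing both fits first, then by p), the 10 highest and lowest fold changes and the 10 smallest p among called genes whose average log2 CPM was 2 or more, and list members whose replicates differed by at least 8-fold. Other genes named in the text were chosen after their values were seen. The 40 lists (658 genes), the rule and the comparison itself were chosen with earlier results of these data known, so a list's count is a description and lists were given no set test. Lists of the closing section and the promoter motifs were added after the values were seen. Promoter sequences are RefSeq windows on GRCm38.p6, matched by symbol. Where a group had no counts, folds are lower bounds against 3 counts per library. Where a group of a named called gene held 1 to 3 counts, the ratio of summed counts is given with an exact (Clopper-Pearson) 95% interval, which covers counting error only. Results for some genes are not reported here.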

Additional observations from a re-analysis of the deposited data

How the results depend on the processing

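The counts of 452 higher and 533 lower genes depended on the fit. They were 93 and 126 with the 4 compared libraries, 699 and 917 with DESeq2, 725 and 815 with no filter on low counts, and 284 higher genes with total-count scaling. With each library left out in turn they ran from 185 to 1007 and from 260 to 1165. Rbpj was at -1.36 (adjusted p = 0.057) with the 4 libraries, and the cause was not tested beyond the fewer libraries used. With the replicate block the counts were 524 and 623. Deviations of same-numbered Control and uninduced libraries correlated at -0.041 across genes, so the numbers are not taken to pair the samples. Fold changes near 0 of 3 low Notch targets reversed, and the cause was not tested. Left out in turn, single libraries gave up to 0.59 for Hes5, 1.63 for Hey2 and 7.35 for Heyl. Hes5 was at -0.01 with DESeq2, -0.02 with RLE, -0.08 with upper quartile, -0.15 with total counts, -0.08 with the block, -0.34 without Control replicate 1, -0.88 without uninduced replicate 2 and -0.02 without induced replicate 2. Hey2 was at -0.01 with total counts, -0.11 with the block, -0.36 without Control replicate 1 and -5.56 without uninduced replicate 2. Heyl was at -0.15 without Control replicate 1 and -6.47 without uninduced replicate 2. Depth limits genes below a few CPM, where a floor of 3 counts per library applies.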

Other observations

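Further gene groups were described after the values had been seen, so their counts carry no test. All 26 tested chaperones and glycosylation enzymes of the endoplasmic reticulum had fold changes above 0, with a median of 0.79 and 14 called higher, against 2.49% of all genes. Calr, calreticulin, was at 486 and 426 CPM in Control and 1336 and 1305 CPM in uninduced cells (1.53, SE 0.169, edgeR adjusted p = 0.00181). Rpn1, of the oligosaccharyl transferase, was at 108 and 98.4 CPM in Control and 291 and 291 CPM in uninduced cells (1.49, SE 0.172, edgeR adjusted p = 0.00214). Both passed with the 4 compared libraries too, where 3 members did. With upper quartile or total-count scaling 25 of the 26 were above 0, and 7 were called without Control replicate 1 and 4 without Control replicate 2.

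Metallothioneins, which bind zinc and copper, were higher in uninduced libraries. Mt1 was at 0.381 and 1.95 CPM in Control and 24.5 and 53.6 CPM in uninduced cells (5.28, edgeR adjusted p = 0.00424). Mt2 was at 0.0761 and 0 CPM in Control and 8.87 and 9.92 CPM in uninduced cells (edgeR adjusted p = 0.00834). Control held 1 count of Mt2, and the ratio of summed counts was 179-fold higher with a 95% interval of counting error of 31.5 to 7105. Both were called with each library left out. Of 19 genes of glutathione and peroxide defence 6 were higher and none lower, with a median of 0.75. Gclm, a subunit of the enzyme that starts glutathione synthesis, was at 14.5 and 16.1 CPM in Control and 91.3 and 61.9 CPM in uninduced cells (2.33, edgeR adjusted p = 0.00372). The list had 3 higher members without Control replicate 1 and 2 without Control replicate 2.

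Of 19 genes of the NF-kB pathway and its targets 8 were lower and none higher, with a median of -0.77 and 1 fold change above 0. Tnf was at 69.4 and 95.9 CPM in Control and 4.52 and 11.5 CPM in uninduced cells (-3.33, edgeR adjusted p = 0.00365). Nfkbiz was at 244 and 365 CPM in Control and 97.9 and 80.5 CPM in uninduced cells (-1.77, edgeR adjusted p = 0.00365). Without Control replicate 2 the list had 5 lower members. Of 15 genes of NFAT, calcium and diacylglycerol signalling 7 were lower, 2 without Control replicate 1, with a median of -0.47 (-0.72 without Control replicate 2 and -0.76 without uninduced replicate 2). Prkch, a protein kinase C, was at 105 and 99.8 CPM in Control and 30.8 and 37.6 CPM in uninduced cells (-1.58, edgeR adjusted p = 0.00395). Of 12 dual-specificity phosphatases, some of which switch off MAP kinases, 3 were lower, and none passed with the 4 compared libraries. Fold changes were above 0 for 5 of the 12. Their median was -0.39, and 0.07 without Control replicate 2. Dusp5 was at 355 and 503 CPM in Control and 17.4 and 72.2 CPM in uninduced cells (-3.24, edgeR adjusted p = 0.00966, and 0.0688 with the 4 libraries).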
